A study of Mus musculus with 6 samples.

Results

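The 10 genes described here encode enzymes that build, lengthen and desaturate fatty acids: the stearoyl-CoA desaturases Scd1 and Scd2, the front-end desaturases Fads1 and Fads2, their relative Fads3, the elongases Elovl1, Elovl5 and Elovl6, and the synthases Fasn and Acaca. They were taken by gene name from the 53465 genes of an expression table, and all 10 were found in it. The genes were selected on their RPKM values and log2 fold changes between OMP-treated and vehicle-treated cells, so their differences between these groups are given as a description, without a test. The cells were Nras(G12D)/MLL-AF9, a mouse leukaemia line that carries mutant Nras and the MLL-AF9 fusion, grown in both groups with serum, stem cell factor, interleukin-3 and interleukin-6. Libraries came from cells treated for 6 days, 3 of them with 100 µM 4'-O-methylpyridoxine (OMP), a vitamin B6 analog known as an inhibitor of pyridoxal kinase and 3 with PBS as Vehicle. Whether the line is a single clone, and whether replicates were separate cultures, was not stated. The p-values therefore reflect only how far these 6 libraries scatter, and that scatter may be technical.

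Acaca, acetyl-CoA carboxylase, makes malonyl-CoA, and Fasn, fatty acid synthase, joins malonyl units into palmitate. Elongases of the Elovl family lengthen acyl-CoA chains in the endoplasmic reticulum. Stearoyl-CoA desaturases place the first double bond in saturated chains and give monounsaturated fatty acids, while Fads1 and Fads2 add double bonds to dietary essential fatty acids on the way to arachidonic and docosahexaenoic acid. Desaturases take electrons from cytochrome b5 and its reductases. Transcription of many of these genes is known to be driven by SREBP proteins, the products of Srebf1 and Srebf2, and by liver X receptors.

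Poly(A) RNA was measured as RPKM, reads divided by the length of the gene and by the library total. Library totals ran from 3494986 to 3720117 reads in OMP and from 3737843 to 4247619 in Vehicle. Haematopoietic identity was checked with 12 markers, all of them above the filter on low values, among them Ptprc (CD45) at 139.4 RPKM in OMP and 107.4 RPKM in Vehicle. Of these 12 markers 3 rose (Ptprc, Itgam and Spi1) and 5 fell (Prtn3, Elane, Mpo, Myb and Kit) in limma, and their summed level was 1110.04 to 1154 RPKM in OMP and 2127 to 2202 RPKM in Vehicle. Of 10 adipocyte markers 6 were listed at 0 in every library, Adipoq, Lep and Fabp4 among them, and of 10 hepatocyte markers 8 were, Alb among them. A total of 11020 genes passed the filter on low values (3 or more of the 6 libraries with 1 RPKM or more) and were tested with limma. Of these 43.0% passed an adjusted p of 0.05, with 15.4% higher and 27.5% lower in OMP. The 1702 higher and 3033 lower genes became 2370 and 2237 with median-of-ratios scaling, 2244 and 2321 with quantile normalization, 2670 and 2514 with limma-voom on recovered reads, and 1215 and 3973 with TPM rescaling. Markers of maturing granulocytes and genes of the cell cycle moved between the same groups. Of 13 granulocyte markers 12 rose and 0 fell, and their summed level was 9517 to 10030.1 RPKM in OMP and 2777 to 2883 RPKM in Vehicle. Of 24 cell cycle genes 0 rose and 22 fell, with a summed level of 1206 to 1218 RPKM in OMP and 1860.2 to 1888 RPKM in Vehicle. Their part in the differences below was not tested, and in bulk RNA fewer cells of a type and less RNA per cell cannot be told apart.

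Scd1 and Scd2 are similar copies on chromosome 19, so a stretch of their coding sequences is shown to make clear how reads can be told apart. The aligned coding sequences of GENCODE M21 (GRCm38), of 1065 and 1074 bases, were 89.8% identical, and the longest run they shared was 147 bases. Of all 50-base windows of the Scd1 coding sequence, 14.3% also occurred in Scd2. The noncoding parts of the transcripts were not compared. The following stretch of 90 bases, coding bases 130 to 219 of Scd1 and 139 to 228 of Scd2, has an identity near that of the whole. Capitals mark the 9 bases that differ.
Scd1: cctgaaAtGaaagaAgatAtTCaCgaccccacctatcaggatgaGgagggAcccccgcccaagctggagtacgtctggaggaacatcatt
Scd2: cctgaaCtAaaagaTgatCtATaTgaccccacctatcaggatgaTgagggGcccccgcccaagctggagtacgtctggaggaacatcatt
How reads that match both copies were counted was not stated, so a small level of one copy beside a high level of the other is uncertain.

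Promoter windows are shown for Fads2 and Elovl5 (lower in OMP), Elovl1 (higher in OMP) and Fasn (no direction given). They come from RefSeq on GRCm38.p6 and cover 250 bases before to 50 bases after a gene's start. Of the 10 genes 7 had an entry, and Scd1, Scd2 and Fads1 had none. Capitals mark matches, on either strand, to the sterol regulatory element TCACNCCAC, to ATCACCC, to the E-box CACGTG, to the CCAAT box or to the GC box GGGCGG.
Fads2, chr19:10101454-10101753, minus strand: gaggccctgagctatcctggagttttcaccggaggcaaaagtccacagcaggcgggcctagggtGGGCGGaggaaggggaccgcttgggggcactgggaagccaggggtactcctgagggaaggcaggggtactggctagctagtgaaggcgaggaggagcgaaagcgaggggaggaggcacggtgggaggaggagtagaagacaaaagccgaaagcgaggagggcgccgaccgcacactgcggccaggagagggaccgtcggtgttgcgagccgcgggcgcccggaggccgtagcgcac
Elovl5, chr9:77917115-77917414, plus strand: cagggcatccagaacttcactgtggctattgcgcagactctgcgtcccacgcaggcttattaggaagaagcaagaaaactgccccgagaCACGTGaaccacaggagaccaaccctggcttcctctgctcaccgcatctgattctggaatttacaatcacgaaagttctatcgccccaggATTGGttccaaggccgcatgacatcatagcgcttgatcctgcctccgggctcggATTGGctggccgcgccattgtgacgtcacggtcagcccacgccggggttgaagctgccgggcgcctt
Elovl1, chr4:118427843-118428142, plus strand: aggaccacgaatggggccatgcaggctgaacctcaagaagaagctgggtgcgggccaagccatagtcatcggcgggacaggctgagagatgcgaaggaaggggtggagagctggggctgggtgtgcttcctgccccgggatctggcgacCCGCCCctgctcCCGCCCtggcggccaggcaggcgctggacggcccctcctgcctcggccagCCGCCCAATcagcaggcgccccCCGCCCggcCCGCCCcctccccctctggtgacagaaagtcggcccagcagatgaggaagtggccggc
Fasn, chr11:120824498-120824797, minus strand: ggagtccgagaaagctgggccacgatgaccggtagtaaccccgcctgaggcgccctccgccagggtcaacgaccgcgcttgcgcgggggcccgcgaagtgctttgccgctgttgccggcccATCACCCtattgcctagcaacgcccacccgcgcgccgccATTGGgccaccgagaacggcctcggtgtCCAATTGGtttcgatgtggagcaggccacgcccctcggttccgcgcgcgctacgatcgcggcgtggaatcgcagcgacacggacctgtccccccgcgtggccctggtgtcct
The Fads2 window held 1 GC box, 186 bases before the start. Elovl5 had an E-box 161 bases before the start and 2 CCAAT boxes. The first of 2 listed starts of Elovl1 had 5 GC boxes and 1 CCAAT box, which shares 2 bases with a GC box. Fasn had ATCACCC 129 bases before the start and 3 CCAAT boxes, of which a pair on opposite strands share 2 bases. The Elovl6 and Acaca windows had no match. Of 32851 promoter windows in the table, 1.24% held TCACNCCAC, 2.69% ATCACCC, 7.15% the E-box, 37.4% a CCAAT box and 35.7% a GC box. None of the 7 genes had a TCACNCCAC match, which says only that these letters were not in these windows.

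Among desaturases, levels were lower in OMP for 4 of the 5 genes, while the synthases lay at similar levels in both groups. Scd1 and Fads2 had the largest log2 differences of the 10 genes, Elovl1 was the single gene with higher levels in OMP, and Fads3 was close to absent. Over all 10 genes, every OMP library lay below every Vehicle library for 6 and above for 1. Over all genes tested 54.5% had groups that did not overlap, 34.6% below and 19.9% above, and since this contrast chose the genes, nothing is read from the count.

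**Figure D1:**
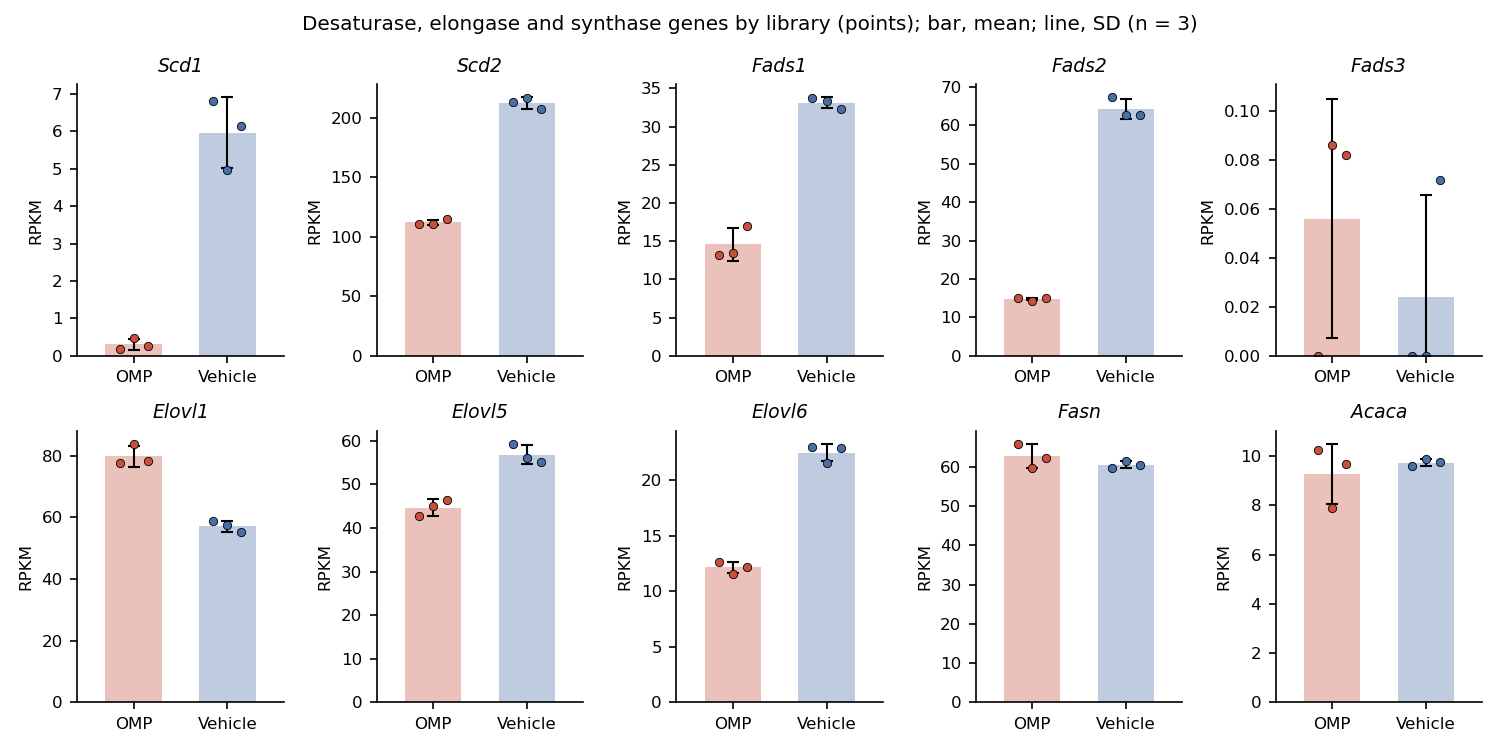
RPKM of each gene in the 3 OMP (red) and 3 Vehicle (blue) libraries, with points for libraries, bars for means and lines for SD. OMP points lie below all Vehicle points for Scd1, Scd2, Fads1, Fads2, Elovl5 and Elovl6, above them for Elovl1, and among them for Fasn, Acaca and Fads3. Each panel has its own scale.

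Scd1 (ENSMUSG00000037071, chromosome 19, 44394455 to 44407879, minus strand) had 0.177, 0.466 and 0.278 RPKM in OMP replicates 1 to 3, against 6.80, 4.95 and 6.13 RPKM in Vehicle replicates 1 to 3. All 3 OMP libraries were far below the lowest Vehicle library. These levels stood for 3, 8 and 5 reads in OMP and for 123, 98 and 126 reads in Vehicle. The mean in OMP was 5.15% of that in Vehicle, and from 16 against 347 reads the level was 19.3-fold lower, with an exact 95% counting interval of 11.7-fold to 34.2-fold that covers counting error only. On the log2(RPKM + 0.5) scale, which understates changes of low genes, the difference was -3.01 ± 0.22 (SE), the lowest of the 11020 genes. Scd1 passed the filter through its Vehicle libraries alone and was chosen on this contrast, so nothing is read from that rank. The log2 difference was -3.95 with a pseudocount of 0.1, -2.41 with a pseudocount of 1 and -4.14 on recovered reads with limma-voom.

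Scd2 (ENSMUSG00000025203, chromosome 19, 44293674 to 44306864, plus strand), the copy known as the main stearoyl-CoA desaturase of several mouse tissues outside the liver, was the most abundant of the 10 genes. It had 111, 111 and 115 RPKM in OMP, against 213, 216 and 207 RPKM in Vehicle. The groups were far apart relative to their spread, with means of 112 ± 2.34 RPKM in OMP and 212 ± 4.84 RPKM in Vehicle (SD, n = 3 each). Its log2 difference was -0.92 ± 0.04 (SE), and OMP held 52.8% of the Vehicle level. Scd1 made up 0.274 ± 0.133% of the summed Scd1 and Scd2 RPKM in OMP and 2.74 ± 0.447% in Vehicle (SD, n = 3 each). Scd2 shares 61 exon bases, or 1.12% of its exon length, with the microRNA gene Mir5114 on the same strand, and reads of both cannot be separated there. The nearby copies Scd3 and Scd4 had 0 and 3 reads in all OMP libraries and 2 and 2 reads in all Vehicle libraries.

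Fads2 (ENSMUSG00000024665, chromosome 19, 10062765 to 10101746, minus strand), the desaturase that opens the polyunsaturated pathway, had 14.99, 14.38 and 14.97 RPKM in OMP, against 67.2, 62.6 and 62.8 RPKM in Vehicle. The OMP libraries differed from each other by less than 1 RPKM and all lay far below Vehicle. The mean in OMP was 23.0% of that in Vehicle, and the log2 difference was -2.08 ± 0.05 (SE), the 15th lowest of the genes tested. Fads2 too was chosen on this contrast, so nothing is read from that rank. Recovered reads were 79, 77 and 84 in OMP and 379, 386 and 402 in Vehicle. They rest on the smallest gene length that gives whole reads, 1508 bases, which is shorter than the longest annotated transcript of 3150 bases, so they are lower limits.

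Fads1 (ENSMUSG00000010663, chromosome 19, 10182888 to 10196877, plus strand), which acts after Fads2 in the same pathway, had 13.2, 13.4 and 17.0 RPKM in OMP, against 33.7, 33.3 and 32.3 RPKM in Vehicle. OMP replicate 3 was the highest of its group, and all 3 stayed below Vehicle. The log2 difference was -1.17 ± 0.09 (SE), and it was -1.28 without OMP replicate 3. Fads2 RPKM was 1.03 ± 0.132 times that of Fads1 in OMP and 1.94 ± 0.0594 times in Vehicle (SD, n = 3 each). Fads2 and Fads1 lie 81141 bases apart on opposite strands, and Fads3 lies 2654 bases from Fads2. Fads3 (ENSMUSG00000024664, chromosome 19, 10041569 to 10060110, plus strand), a desaturase known to act on sphingoid bases, was under the filter with 2 reads in OMP and 1 read in Vehicle in all, so no difference could be seen at this depth.

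The elongases did not share a direction. Elovl6 (ENSMUSG00000041220, chromosome 3, 129532355 to 129638495, plus strand), which lengthens palmitate to stearate, had 12.6, 11.6 and 12.2 RPKM in OMP, against 23.0, 21.6 and 22.9 RPKM in Vehicle. Every OMP library was below every Vehicle library, with 54.0% of the Vehicle mean and a log2 difference of -0.86 ± 0.06 (SE). It shares 34 exon bases, or 0.529% of its exon length, with Gm35986 on the opposite strand.

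Elovl5 (ENSMUSG00000032349, chromosome 9, 77917364 to 77984519, plus strand), the elongase of polyunsaturated chains between the Fads2 and Fads1 steps, had 42.7, 44.9 and 46.4 RPKM in OMP, against 59.2, 56.0 and 55.1 RPKM in Vehicle. The groups did not overlap, with 78.7% of the Vehicle mean in OMP and a log2 difference of -0.34 ± 0.05 (SE).

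Elovl1 (ENSMUSG00000006390, chromosome 4, 118428093 to 118432953, plus strand), which makes very long saturated and monounsaturated chains used in sphingolipids, had 77.6, 83.8 and 78.2 RPKM in OMP, against 58.6, 57.4 and 55.2 RPKM in Vehicle. All 3 OMP libraries were above all Vehicle libraries, with a log2 difference of 0.48 ± 0.05 (SE). Elovl5 RPKM was 0.560 ± 0.0295 times that of Elovl1 in OMP and 0.994 ± 0.0174 times in Vehicle (SD, n = 3 each). Elovl1 shares 53 exon bases, or 1.94% of its exon length, with Cdc20 on the opposite strand, and Cdc20 had 65.4 RPKM in OMP and 65.1 RPKM in Vehicle.

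The synthase genes overlapped between groups. Fasn (ENSMUSG00000025153, chromosome 11, 120805846 to 120824547, minus strand) had 65.8, 59.8 and 62.3 RPKM in OMP, against 59.8, 61.5 and 60.3 RPKM in Vehicle. The OMP libraries spread around the Vehicle values, with a log2 difference of 0.05 and a 95% interval of -0.06 to 0.16. Over scalings this difference was between -0.04 with TPM rescaling and 0.14 with median-of-ratios scaling, so no direction is given. With 6775 reads in OMP and 7349 in Vehicle, depth does not limit it as it does Scd1.

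Acaca (ENSMUSG00000020532, chromosome 11, 84129672 to 84401651, plus strand) had 10.2, 7.90 and 9.69 RPKM in OMP, against 9.59, 9.87 and 9.75 RPKM in Vehicle. OMP replicate 2 was the lowest of the 6 libraries, and OMP replicate 1 the highest. The log2 difference was -0.07, with a 95% interval of -0.31 to 0.16, so no direction is given. It was 0.04 with quantile normalization, 0.01 with median-of-ratios scaling, 0.01 with voom and 0.03 without OMP replicate 2.

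**Figure D2:**
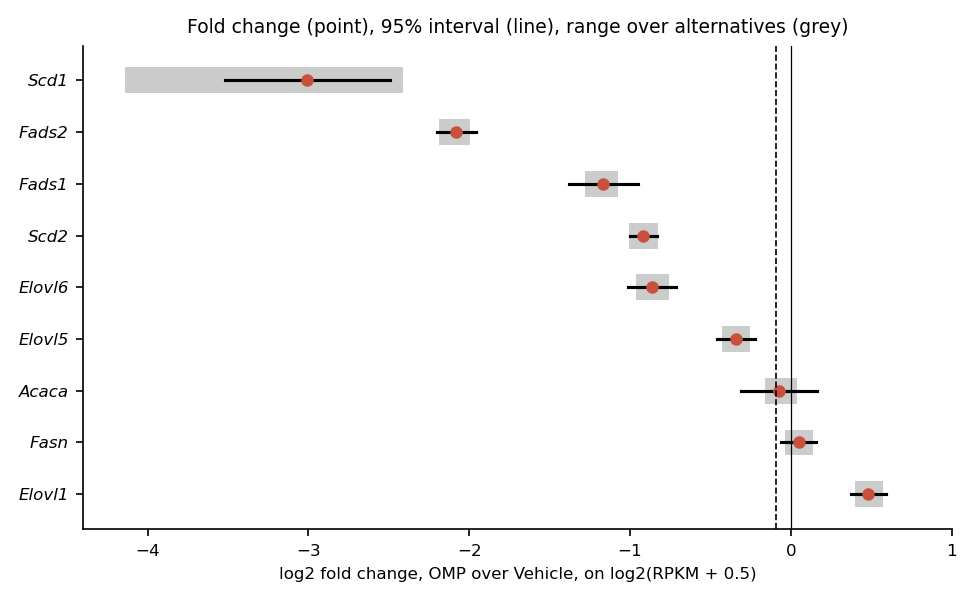
Log2 fold change of OMP over Vehicle for the 9 genes above the filter (points), with 95% intervals from the limma fit (black lines) and the range over the alternative settings (grey bars). The dashed line is the median of all genes tested, -0.09. Scd1 has the widest grey bar, from -4.14 to -2.41, and the bars of Fasn and Acaca cross 0.

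The order of levels, in RPKM and so per length, differed between the groups. In OMP it ran Scd2, Elovl1, Fasn, Elovl5, Fads2, Fads1, Elovl6, Acaca, Scd1 and Fads3, and among neighbours only the ranges of Fads2 and Fads1 overlapped. In Vehicle it ran Scd2, Fads2, Fasn, Elovl1, Elovl5, Fads1, Elovl6, Acaca, Scd1 and Fads3, and among neighbours only the ranges of Elovl1 and Elovl5 overlapped. The 5 desaturases summed to 142 ± 4.64 RPKM in OMP and 315 ± 6.49 RPKM in Vehicle (SD, n = 3 each). Scd2 RPKM was 1.79 ± 0.0940 times that of Fasn in OMP and 3.50 ± 0.0677 times in Vehicle. Elovl6 RPKM was 0.194 ± 0.00213 times that of Fasn in OMP and 0.372 ± 0.0180 times in Vehicle. These ratios show unequal differences between genes within the same libraries, whatever the scaling of the library.

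**Figure D3:**
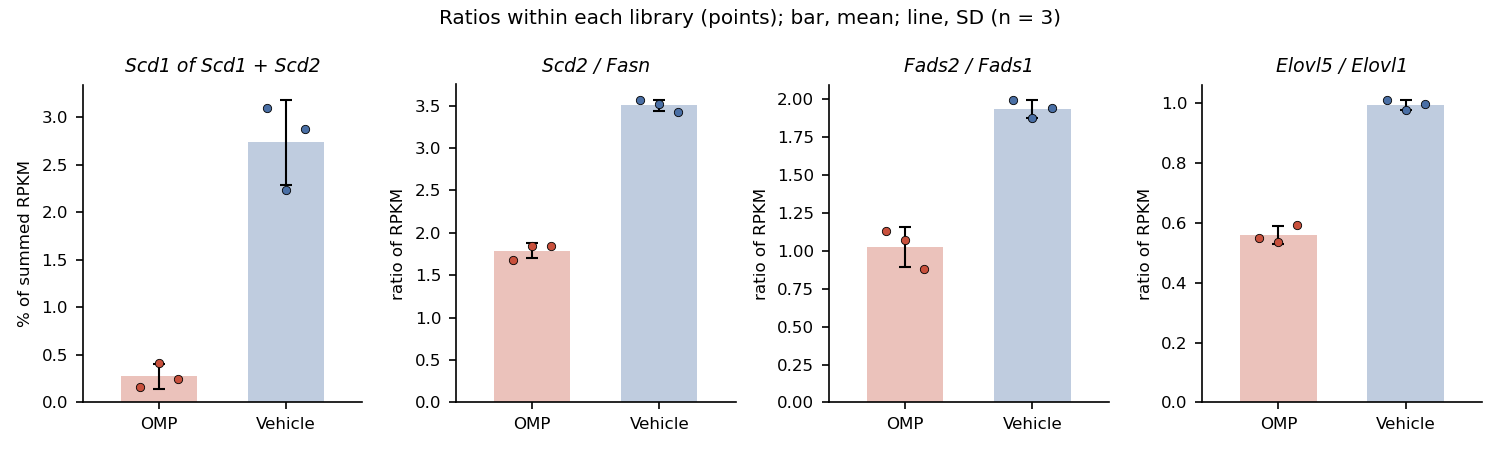
Ratios of RPKM within each library for OMP (red) and Vehicle (blue), with points for libraries, bars for means and lines for SD. The share of Scd1, and the ratios of Scd2 to Fasn, Fads2 to Fads1 and Elovl5 to Elovl1, are lower in all 3 OMP libraries than in all 3 Vehicle libraries.

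Genes most like 3 of the desaturases over the 6 libraries were found by the root mean square difference of log2 values relative to the Vehicle mean. For Fads2 they included Rassf4, at 1.67 ± 0.145 RPKM in OMP and 9.01 ± 0.734 RPKM in Vehicle (SD, n = 3 each, difference 0.0617 log2 units), and Plxnb2 (0.168). For Scd2 they were Prc1, a mitotic spindle protein (0.0449), Dscr3 (0.0450) and Slc40a1, the iron exporter ferroportin (0.0468). Scd1 had no close match, and the nearest were Ighm (0.315), Irf8 (0.464) and Rassf4 (0.656).

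Other genes of fatty acid synthesis were described with limma and Benjamini-Hochberg adjustment over all genes tested, as were the lists that follow. Among the 16 genes tested, 1 was higher and 3 were lower past the threshold, against 43.0% called over all genes, and their median log2 fold change was -0.18, against -0.09 over all genes tested. Acly, ATP citrate lyase, which supplies acetyl-CoA, had 96.9 ± 3.98 RPKM in OMP and 114.8 ± 2.97 RPKM in Vehicle (SD, n = 3 each, log2 fold change -0.24 ± 0.04 SE, limma adjusted p = 0.00250). Slc25a1, the mitochondrial citrate carrier, fell by 0.24 (limma adjusted p = 0.00264), but not past the threshold with voom (0.0651). Aasdhppt, which attaches the phosphopantetheine arm of fatty acid synthase, rose to 19.3 ± 1.08 RPKM in OMP, against 12.7 ± 1.85 RPKM in Vehicle (limma adjusted p = 0.00207). Enzymes that complete each elongation cycle did not pass the threshold: Tecr differed by -0.19 on the log2 scale (limma adjusted p = 0.0519), Hsd17b12 by -0.03 and Hacd2 by 0.23 (limma adjusted p = 0.0645). Each of these was called under some alternatives. Tecr was called lower with TPM rescaling, quantile normalization, a filter at 5 RPKM and a robust prior. Hsd17b12 was called lower with TPM rescaling (limma adjusted p = 0.0293). Hacd2 was called higher with median-of-ratios scaling, quantile normalization and voom. Elovl7 had 5.98 ± 0.688 RPKM in OMP and 6.97 ± 0.594 RPKM in Vehicle (limma adjusted p = 0.176). Elovl2, Elovl3, Elovl4, Acacb and Me1, the malic enzyme that supplies NADPH, were under the filter, Elovl4 at 0 in every library. With TPM rescaling 1 gene of the list rose and 6 fell, with quantile normalization 3 and 4, and with median-of-ratios scaling 3 and 3.

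Electron donors of the desaturases did not share a direction. Among the 6 tested, 1 was called higher and 1 lower, or 33.3%, against 43.0% called over all genes tested. The counts were 0 and 3 with TPM rescaling and 1 and 0 with median-of-ratios scaling. Cyb5r3, a cytochrome b5 reductase, had 24.6 ± 1.98 RPKM in OMP and 29.2 ± 0.150 RPKM in Vehicle (SD, n = 3 each, limma adjusted p = 0.0170), a call lost with median-of-ratios scaling (adjusted p = 0.0844). Its relative Cyb5r1 had 176.8 ± 6.78 RPKM in OMP and 156.2 ± 4.92 RPKM in Vehicle (limma adjusted p = 0.00937), a call lost with TPM rescaling (adjusted p = 0.0874). Cyb5a, which encodes cytochrome b5, did not pass the threshold at -0.23 ± 0.09 on the log2 scale (SE, limma adjusted p = 0.0698), and neither did Cyb5b at -0.04 ± 0.05.

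Of the lipogenic regulators Srebf1 had the smallest p-value. Srebf1 had 29.5, 28.9 and 29.3 RPKM in OMP, against 43.6, 41.8 and 42.1 RPKM in Vehicle, and fell by 0.53 ± 0.05 on the log2 scale (SE, limma adjusted p = 5.74e-05). Both of its groups were narrow and far apart. Insig1, an endoplasmic reticulum protein that holds back SREBP and is itself an SREBP target, had 19.6, 18.4 and 18.9 RPKM in OMP, against 24.6, 29.5 and 25.3 RPKM in Vehicle (log2 fold change of -0.47 with SE 0.08, limma adjusted p = 0.00169). Mid1ip1, which binds and activates acetyl-CoA carboxylase, had 42.3, 50.7 and 43.7 RPKM in OMP, against 68.7, 62.1 and 64.5 RPKM in Vehicle (log2 fold change -0.51 ± 0.07 SE, limma adjusted p = 0.000755). For these 3 genes no OMP library reached the lowest Vehicle library.

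Srebf2 fell by less, to 50.7 ± 2.09 RPKM in OMP, against 58.0 ± 3.50 RPKM in Vehicle (SD, n = 3 each, limma adjusted p = 0.0253), and was not called with median-of-ratios scaling (adjusted p = 0.192) or without OMP replicate 2, OMP replicate 3 or Vehicle replicate 1. Nr1h2, a liver X receptor, had a limma adjusted p of 0.0209, also lost with median-of-ratios scaling (0.134) and without OMP replicate 3, Vehicle replicate 1 or Vehicle replicate 2. Scap, the escort of SREBP, had 16.1 ± 0.548 RPKM in OMP and 14.95 ± 0.207 RPKM in Vehicle (limma adjusted p = 0.227), and was called higher under median-of-ratios scaling (adjusted p = 0.0395). Mlxipl, which encodes the glucose-responsive lipogenic factor ChREBP, and the liver X receptor gene Nr1h3 were under the filter, and Thrsp was listed at 0 in every library. Pparg was also under the filter, with 29 reads in OMP and 9 reads in Vehicle, and its OMP libraries all lay above Vehicle. Of 32 tested regulators 0 rose and 8 fell, or 25%, against 43.0% called and 27.5% lower over all genes tested. Their median was -0.13, against -0.09 over all genes tested. The absence of rises depended on scaling: 6 rose and 6 fell with median-of-ratios scaling, 5 and 6 with quantile normalization, 7 and 6 with voom, and 0 and 15 with TPM rescaling.

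**Figure D4:**
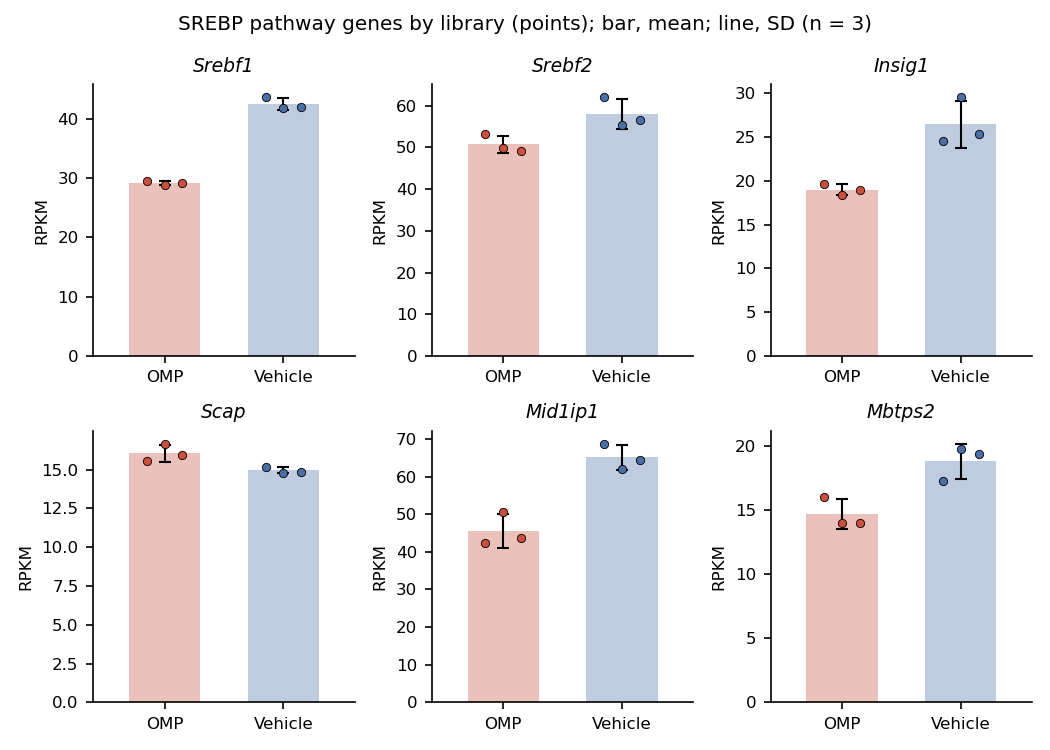
RPKM of 6 lipogenic regulators in the 3 OMP (red) and 3 Vehicle (blue) libraries, with points for libraries, bars for means and lines for SD. Srebf1, Insig1, Mid1ip1, Srebf2 and Mbtps2 are lower in all OMP libraries than in all Vehicle libraries, and Scap is higher in all of them without passing the test.

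Acyl-CoA synthetases and glycerolipid genes were called in both directions, at a share near that of all genes tested. Of 33 tested 4 rose and 12 fell, or 48.5%, against 43.0% called over all genes tested. Their median log2 fold change was -0.03, against -0.09 over all genes tested. The split was 5 and 8 with median-of-ratios scaling, 5 and 9 with quantile normalization, 8 and 11 with voom, and 2 and 13 with TPM rescaling. Without OMP replicate 1, 10 genes of this list were called. Lpcat1, a lysophosphatidylcholine acyltransferase, had 4.53 ± 0.703 RPKM in OMP and 10.3 ± 1.05 RPKM in Vehicle (SD, n = 3 each, log2 fold change -1.11 ± 0.13 SE, limma adjusted p = 0.000258), while Lpcat2, which serves inflammatory lipid mediators, had 14.02 ± 3.12 RPKM in OMP and 4.73 ± 0.946 RPKM in Vehicle (log2 fold change 1.46 ± 0.18 SE, limma adjusted p = 0.000321). Pcyt1a, the rate-limiting enzyme of phosphatidylcholine synthesis, fell to 27.0 ± 1.27 RPKM in OMP, against 36.7 ± 0.253 RPKM in Vehicle, and Acsl3 fell to 11.9 ± 1.33 RPKM in OMP, against 17.2 ± 0.662 RPKM in Vehicle. Acsl1, Acsl5, Gpam, Mboat7 and Dgat1 did not pass the threshold. Acsl4, Dgat2 and Lpcat3 passed it (limma adjusted p = 0.0455, 0.0301 and 0.0207), and each lost the call without OMP replicate 1, OMP replicate 2 or Vehicle replicate 1, Acsl4 also without Vehicle replicate 2, and Dgat2 also without OMP replicate 3 or Vehicle replicate 3. The calls were also lost with TPM rescaling for Acsl4 (adjusted p = 0.180) and Dgat2 (0.260), with median-of-ratios scaling for Lpcat3 (0.0891), and with no filter for Acsl4 (0.0853) and Lpcat3 (0.0508).

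Genes of lipid droplets and lipolysis included 3 rises and 3 falls among 13 tested, or 46.2%, near the 43.0% called over all genes tested. Their median was 0.00, against -0.09 over all genes tested, and 4 rose and 1 fell with median-of-ratios scaling. Plin2, a lipid droplet coat protein, had 177, 180 and 166 RPKM in OMP, against 92.8, 98.0 and 88.2 RPKM in Vehicle, and rose by 0.91 ± 0.05 on the log2 scale (SE, limma adjusted p = 6.00e-06). Abhd5, a co-activator of triglyceride lipase, rose to 79.5 ± 2.79 RPKM in OMP, against 49.7 ± 0.447 RPKM in Vehicle, and Mgll, monoglyceride lipase, to 10.0 ± 0.560 RPKM in OMP, against 5.68 ± 0.296 RPKM in Vehicle. All 3 OMP libraries were above all Vehicle libraries for each of these.

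Fatty acid oxidation had 3 rises and 19 falls among 32 tested genes, or 68.8%, with a median of -0.24. Over all genes tested the share was 43.0% and the median -0.09. The split was 4 and 13 with median-of-ratios scaling and 3 and 14 with quantile normalization. It was 3 and 12 with voom and 2 and 21 with TPM rescaling. The medians of the list were -0.15, -0.18, -0.16 and -0.32 in that order, against -0.006, -0.007, -0.004 and -0.175 over all genes tested. Etfa, an electron transfer flavoprotein subunit, fell to 47.9 ± 1.44 RPKM in OMP, against 77.2 ± 3.53 RPKM in Vehicle (SD, n = 3 each, log2 fold change -0.68 ± 0.05 SE, limma adjusted p = 2.26e-05). Cpt1a, which controls entry of fatty acids into mitochondria, fell to 9.70 ± 0.693 RPKM in OMP, against 14.9 ± 0.769 RPKM in Vehicle, and the oxidation genes Scp2 and Echs1 fell by 0.60 and 0.40 on the log2 scale. In cholesterol synthesis, the other pathway driven by SREBP, 0 of 20 tested genes rose and 16 fell, or 80.0%, with a median of -0.54 (1 rose and 16 fell with voom), and Acat2, Cyp51 and Mvk had the smallest p-values, at log2 fold changes of -1.55, -0.66 and -0.97.

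**Figure D5:**
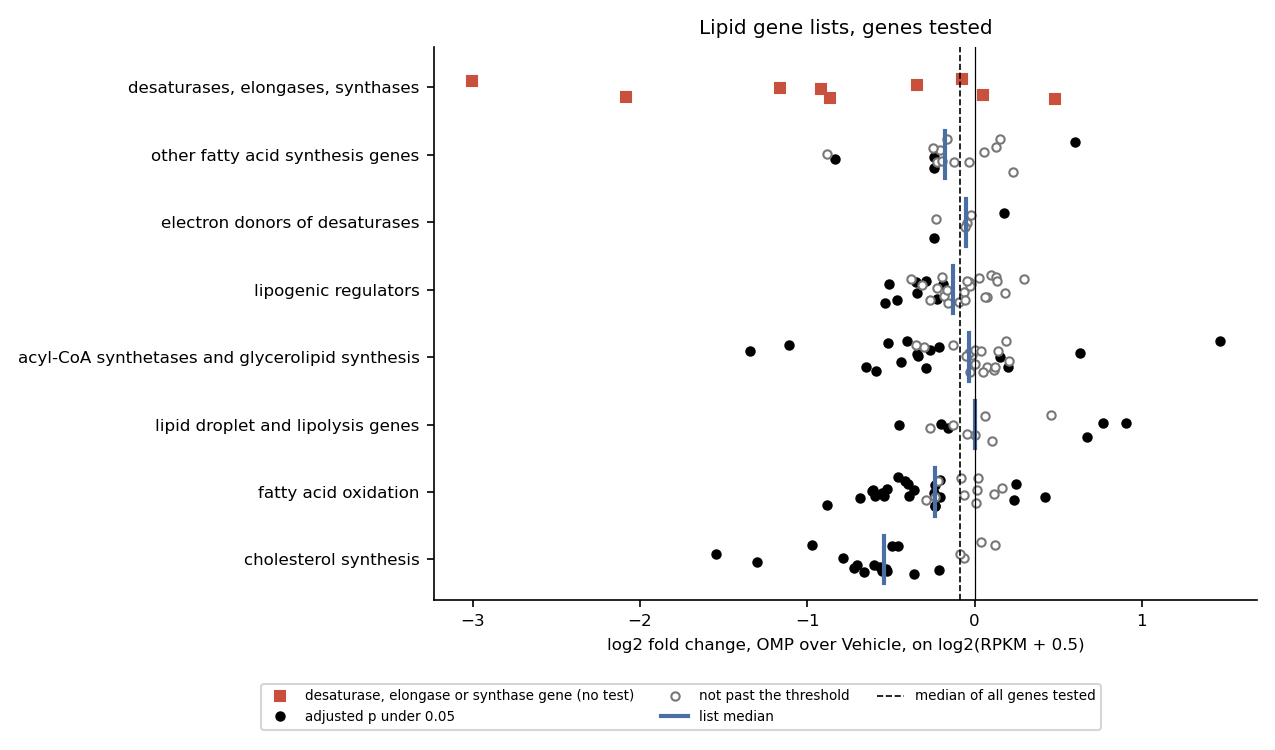
Log2 fold change of OMP over Vehicle (x axis) for the tested genes of each lipid list (rows). Filled circles passed an adjusted p of 0.05 in limma, open circles did not, blue bars are list medians, the dashed line is the median of all genes tested and red squares are the 9 desaturase, elongase and synthase genes, shown without a test. The cholesterol synthesis list has its median at -0.54 and the lipid droplet list at 0.00.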

How the data were processed

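The authors deposited RPKM values, 1 column per library, for 53465 Ensembl genes. Per the submitters' processing notes, featureCounts 1.6.3, STAR 2.5.3a, Trimmomatic 0.36 and FastQC 0.11.5 were used, with mm10 (GRCm38) as the genome. How strand and multiply matching reads were handled, and which annotation release was used, was not stated in the sources used here. Columns were matched to libraries by title. Zeros can be failed estimates, since 6 of 13 mitochondrial genes, mt-Co2 among them, are listed at 0 in every library.

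Whole reads were recovered from the RPKM steps for 100% of 19970 genes above 0, within a relative tolerance of 1e-06. For 94.6% of them the gene length was that of an annotated transcript. For Scd1, Scd2, Fads1, Fads2 and Fads3 it was the smallest length that gave whole reads.

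Genes that reached 1 RPKM in 3 or more libraries were fitted as log2(RPKM + 0.5) with limma 3.58.1 in R 4.3.3, OMP against Vehicle, with a mean-dependent prior, two-sided, and Benjamini-Hochberg adjustment over 11020 genes. The procedure was run on simulated data in which few genes changed, in both directions. That run does not bear on the choice of scaling, and nothing is read from it here. A list is described by its counts and median, with no set test. Named genes were the 10 genes, others fixed by name, the 3 smallest p-values of each of 7 lists, and the 3 genes most like Scd1, Scd2 and Fads2 with a mean of at least 5 RPKM in a group. Cdc20 and the marker genes are named outside this rule, and some genes it selects are not reported here. The genes and lists were chosen with earlier results of these data known.

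Alternatives were pseudocounts of 1 and 0.1, no filter, a filter at 5 RPKM, median-of-ratios scaling, TPM rescaling, leaving out each library, quantile normalization, the replicate number as a block, a robust prior, and limma-voom on recovered reads. Libraries of a group differed by more than sampling noise (chi-square per degree of freedom 1.19 to 1.61). Positions are from GENCODE M21. Figures were drawn with matplotlib 3.10.9.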

Additional observations from a re-analysis of the deposited data

How the results depend on the processing

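With TPM rescaling, median-of-ratios scaling, quantile normalization and voom, 6 of the 10 genes stayed lower in every OMP library than in every Vehicle library. The other alternatives keep each gene's order of libraries or only drop a library, so they could not lower this count. The genes were chosen on this contrast, so nothing is read from the count. For the 9 fitted genes, 119 alternative values moved by less than 1 SD between replicates and 24 moved by more. Fasn changed sign with TPM rescaling, and Acaca with quantile normalization, median-of-ratios scaling and voom and without OMP replicate 2. Scd1 was not fitted with a filter at 5 RPKM. Genes called numbered 3968 to 4241 when a library was left out and 4027 to 5188 under the other settings, against 4735. TPM rescaling called 7 other fatty acid synthesis genes and 15 regulators, against 4 and 8. Quantile normalization called 7 synthesis genes and 1 electron donor, against 4 and 2. Median-of-ratios scaling called 1 electron donor, and voom 1 electron donor and 13 regulators. These scalings shift the median of all genes by -0.09 to 0.09, and small log2 differences cross the threshold with them. Leaving out a library called 10 to 13 of the acyl-CoA and glycerolipid list, against 16. For other named genes 44 values lost the call, 19 gained it, 0 reversed and 719 stayed as they were. Replicate numbers share only a number (correlations of deviations -0.0024, 0.015 and 0.0069, none of the OMP libraries matching its own number best). With the replicate block 4445 genes were called, Acsl4 was not, and Cyb5a was. Depth limits Scd1, with 16 reads in OMP, and Fads3, with 3 reads in all.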
